A study of Mus musculus with 6 samples.

Results

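Kinesins are motor proteins that use ATP to walk along microtubules or to take them apart. The mitotic motors build the spindle, move chromosomes and help to split the cell in cytokinesis, and most of them are made mainly in the later part of the cell cycle. The others carry cargo such as mitochondria, lysosomes, vesicles and RNA through the cytoplasm or work in cilia. The kinesin genes were taken by name from the table: every mouse symbol of Kif followed by a number and an optional letter, pseudogenes left out, and Kifc1 added. This gave 38 of the 24809 genes, of which 12 are mitotic motors (Kif2c, Kif4, Kif11, Kif14, Kif15, Kif18a, Kif18b, Kif20a, Kif20b, Kif22, Kif23 and Kifc1) and 26 are the other kinesins. They cover 59 transcripts in the table, and 25 of the genes have a single one. The rule uses gene names, and it was written with earlier results of these data known.

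The RNA came from C2C12 cells, a line of mouse myoblasts, and was sequenced in control cells (n = 3) and in cells that overexpressed Msx1 (n = 3), a homeobox transcription factor known to hold back muscle differentiation. The headings of the control columns name a vector. The labels give no further treatment, time or culture condition, do not say how Msx1 was introduced or whether the cells were 1 clone or a pool, and do not say whether replicates were separate cultures. The p-values therefore measure the spread between these libraries, which may be technical. Values are FPKM (sequenced fragments scaled to transcript length and to the mapped total of the library), summed over the transcripts of a gene. Changes are Msx1 minus control differences in log2(FPKM + 1). Limma gave the adjusted p over all 12371 genes tested, those with a mean of at least 0.5 FPKM. A gene was called when its adjusted p was under 0.05. This scale understates the change of low genes, so the Msx1 mean is also given as a percentage of the control mean, without a pseudocount. Coordinates are those of GRCm38.

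Msx1 itself read 7.99, 7.13 and 7.54 FPKM in control and 1004, 944 and 912 FPKM in Msx1 libraries. All 8 myoblast markers passed the expression minimum, with 2 called higher, 3 lower and 3 neither. Of all genes tested, 22% were called higher and 32.4% lower. Ncam1 (27.1 ± 2.88 to 53.1 ± 5.11 FPKM) and Pax7 were called higher, Des, Myf5 and Vcam1 lower, and Myod1, Cdh15 and Itga7 neither. Des, the most abundant, went from 140.1 ± 0.668 to 116 ± 4.89 FPKM, and Myf5, with the smallest adjusted p, from 9.01 ± 0.396 to 1.64 ± 0.0968 FPKM. Of 16 markers of other cell types 5 were at 0 in every library and 2 passed the minimum. These were the macrophage marker Cd68, from 3.00 ± 0.366 to 1.05 ± 0.114 FPKM, and the neuronal Tubb3, whose values stand with the tubulins. The 5 without signal were Epcam, Plin1, the macrophage marker Adgre1 and the blood cell markers Ptprc and Cd3e. Csf1r, also a macrophage marker, averaged 0.243 FPKM over all libraries and was below the minimum. Cd68 was thus the only macrophage marker of the list that passed it. The summed level of those 16 markers was 11.5 to 12.4 FPKM in control and 5.63 to 5.94 FPKM in Msx1 libraries. Their part in the kinesin results was not tested. Depth relative to control replicate 1, read from the steps of low values, lay between 0.815 and 1.05 in the other 5 libraries, lowest in control replicate 2.

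All 12 mitotic motors fell with Msx1 overexpression, to between 27.8% and 43.3% of their control mean. All 12 passed the expression minimum, and 12 were called lower and 0 higher, where 32.4% of all genes tested were called lower. Of the other kinesins 20 of 26 passed the minimum. Among these 7 were called lower, 5 higher and 8 neither, where 22% of all genes tested were called higher, and 12 of 20 called in either direction compares with 54.4% of all genes, so their shares lie near the background. Groups did not overlap for 8 of the 20 in the lower and 5 in the higher direction, where all genes had 36.8% and 25.5% (62.3% in either). The median change was -1.15 for the mitotic motors, -0.02 for the other kinesins tested and -0.07 for all genes tested. The median of the other kinesins changed sign with the scaling, and was 0.05 after median-of-ratios scaling, 0.01 after quantile normalization and 0.08 with equal totals without Msx1. In bulk RNA, fewer cycling cells and less motor RNA per cell cannot be told apart.

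Summed over the 12 mitotic motors, control libraries held 149.7, 134 and 142 FPKM and Msx1 libraries 56.0, 49.9 and 52.2 FPKM. Summed over the 26 others, they held 207, 228 and 221 FPKM and 227, 231 and 222 FPKM. The mitotic sums of the groups lay far apart, while the sums of the other kinesins overlapped. Mitotic motors made up 39.4% ± 2.49 of all kinesin FPKM in control and 18.8% ± 1.02 in Msx1 libraries (SD, n = 3 each), a share in which the scale of a library cancels.

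**Figure D1:**
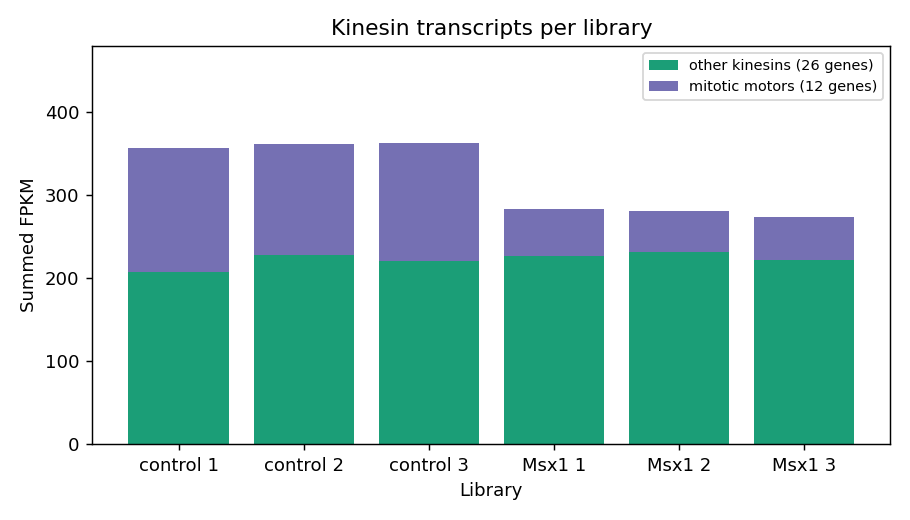
Summed FPKM of the kinesin genes in each of the 6 libraries, stacked as the 26 other kinesins (green) and the 12 mitotic motors (purple). The purple part is 134 to 149.7 FPKM in control and 49.9 to 56.0 FPKM in Msx1 libraries, and the green part is 207 to 231 FPKM over all 6.

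Among the motors that set up the spindle, Kif11 (Eg5; chromosome 19, 37376382 to 37421863), which slides antiparallel microtubules apart to separate the poles, read 10.8, 11.8 and 11.9 FPKM in control and 4.44, 4.28 and 3.64 FPKM in Msx1 libraries (log2 change -1.29, SE 0.08, adjusted p = 5.49e-06). The control libraries were all above the Msx1 libraries by more than the spread within either group, and the Msx1 mean was 35.8% of control. Kif15, a second plus-end motor that can stand in for Kif11, read 4.05, 4.18 and 4.76 FPKM in control and 1.37, 1.61 and 1.30 FPKM in Msx1 libraries (adjusted p = 1.54e-05 for a log2 change of -1.13), down to 33.0%. Kifc1 (HSET; chromosome 17, 33875664 to 33890633), a minus-end motor that pulls inward and focuses the poles, read 19.8, 15.5 and 17.1 FPKM in control and 7.80, 6.50 and 6.79 FPKM in Msx1 libraries (adjusted p = 2.85e-05 for a log2 change of -1.20). Control replicate 1 was the highest Kifc1 library and Msx1 replicate 1 the highest of its group, and the groups did not overlap. Kifc1 has a closely related copy on the same chromosome, Kifc5b, so reads may be divided between them. Kifc5b read 9.33, 7.03 and 7.51 FPKM in control and 3.63, 2.96 and 2.90 FPKM in Msx1 libraries, lower in all Msx1 libraries as well.

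The motors that act on chromosomes and on microtubule ends also fell. Kif4 (chromosome X, 100626065 to 100727271), a chromosome motor that also shapes the central spindle, read 7.19, 7.10 and 6.91 FPKM in control and 2.02, 1.88 and 1.99 FPKM in Msx1 libraries (log2 change -1.45, SE 0.06, adjusted p = 7.95e-07). Its replicates lay close together, its Msx1 mean was 27.8% of control, the lowest of the 12, and its adjusted p was the smallest. Kif22 (Kid), which pushes chromosome arms outward, read 19.5, 15.1 and 17.2 FPKM in control and 7.57, 7.22 and 6.81 FPKM in Msx1 libraries (adjusted p = 2.37e-05 for a log2 change of -1.15), with control replicate 1 highest and control replicate 2 lowest among the controls. Kif2c (MCAK), which takes apart microtubule ends to correct wrong attachments at kinetochores, read 17.5, 15.3 and 16.4 FPKM in control and 5.91, 5.33 and 6.51 FPKM in Msx1 libraries (adjusted p = 5.31e-06 for a log2 change of -1.33). The groups did not overlap for either gene, and the Msx1 means were 41.7% and 36.1% of control. Kif18a, which damps chromosome movements at the metaphase plate, read 2.09, 2.47 and 2.36 FPKM in control and 0.947, 0.963 and 0.859 FPKM in Msx1 libraries (adjusted p = 7.10e-05 for a log2 change of -0.78). Its relative Kif18b, which controls the length of astral microtubules, read 10.4, 7.93 and 9.14 FPKM in control and 3.83, 3.40 and 3.78 FPKM in Msx1 libraries (adjusted p = 3.69e-05 for a log2 change of -1.12). The pair fell to nearly the same share of control, 40.0% and 40.1%, although Kif18b was the more abundant, and the smaller log2 change of Kif18a comes with its low level on the scale with a pseudocount.

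The motors of cytokinesis included the most abundant of the 12 and the one that kept most of its control level. Kif20a (MKLP2; chromosome 18, 34624624 to 34633277), which brings the chromosomal passenger complex to the central spindle, read 38.8, 34.7 and 36.4 FPKM in control and 13.5, 10.8 and 12.5 FPKM in Msx1 libraries (log2 change -1.51, SE 0.08, adjusted p = 3.45e-06). It was the most abundant mitotic motor in every library and held 25.8% ± 0.187 of the mitotic FPKM in control and 23.3% ± 1.44 in Msx1 libraries. Kif23 (MKLP1; chromosome 9, 61917277 to 61946810), the motor of the centralspindlin complex, read 13.4, 13.4 and 14.1 FPKM in control and 5.84, 5.39 and 5.57 FPKM in Msx1 libraries (adjusted p = 1.96e-06 for a log2 change of -1.15), with the groups tight and apart. Kif14, which recruits citron kinase to the midbody, read 2.81, 2.59 and 2.69 FPKM in control and 1.13, 1.13 and 0.815 FPKM in Msx1 libraries (adjusted p = 8.25e-05 for a log2 change of -0.87), and its Msx1 replicate 3 was lowest. Kif20b, which acts in late cytokinesis, read 3.43, 3.82 and 3.28 FPKM in control and 1.58, 1.42 and 1.55 FPKM in Msx1 libraries (adjusted p = 4.34e-05 for a log2 change of -0.84) and kept the largest share of control, 43.3%. All 12 motors had every control library above every Msx1 library, where 36.8% of all genes tested had such groups in that direction. A call with a change of -1 or lower was reached by 9 of the 12, against 3.35% of all genes tested, and Kif14, Kif18a and Kif20b, the 3 least abundant, missed that size.

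**Figure D2:**
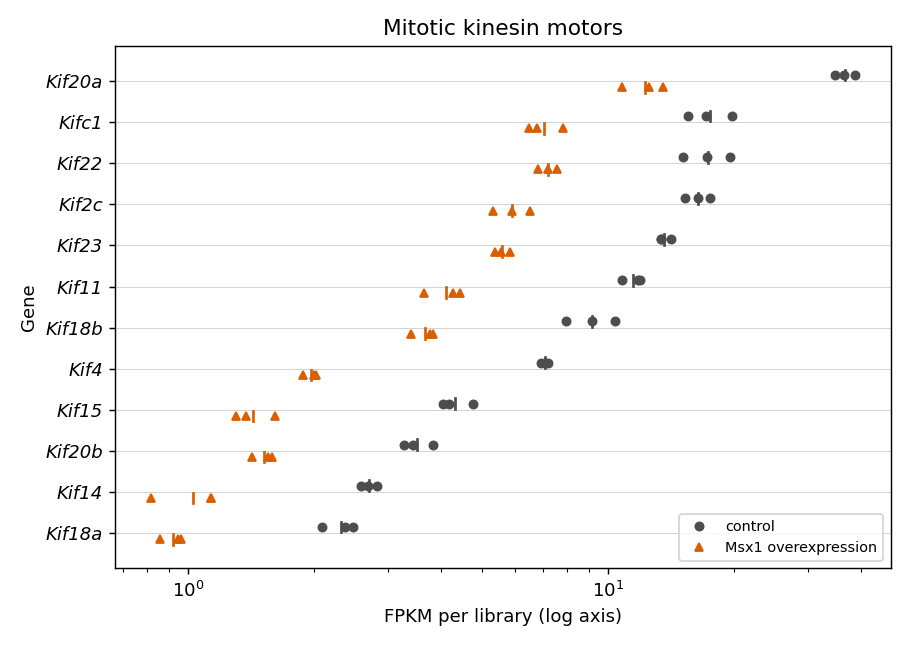
FPKM of the 12 mitotic motors in each library on a log axis, control as grey circles and Msx1 overexpression as orange triangles, with short lines at the group means. Every motor has its 3 control libraries to the right of its 3 Msx1 libraries, from Kif20a at 36.6 down to Kif18a at 2.31 FPKM in control.

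The promoters of the kinesin genes were searched for letters known from late cell cycle genes. The CHR (cell cycle genes homology region) is an element through which the DREAM and MuvB complexes act, the CCAAT box is bound by NF-Y, and E2F-type sites are bound by E2F factors. Letters searched on both strands were TTTGAA and TTCGAA for the CHR, CCAAT for the CCAAT box, and TTTCCCGC, TTTGGCGC, TTTCGCGC and TTTGCCGC for the E2F type, in RefSeq windows of 250 bases before to 50 after the annotated start (GRCm38.p6). Windows matched 32 of the 38 members, 11 of them mitotic. No window was matched for Kif20a, Kif5a, Kif5b, Kif13b, Kif19a and Kif21b. CHR letters were in 10 of 11 mitotic windows, in 4 of 21 other kinesin genes and in 19.2% of 32834 windows of all genes. Both CHR and CCAAT letters were in 7 of 11 mitotic motors (Kif4, Kif11, Kif14, Kif18b, Kif22, Kif23 and Kifc1), in 3 of 21 others and in 7.52% of all windows. E2F-type letters were in Kif15 and Kif18a, in 0 of 21 others and in 2.27% of all windows. A CHR match began within 30 bases of the start, a span chosen after the matches were seen, in 8 of 11 mitotic motors, in 2 of 21 others and in 3.40% of all windows. The windows of Kif2c and Kif14, both counted among the mitotic motors with CHR letters, lie inside the listed spans of their genes. These matches are a description of letters and show no binding.

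The windows below run from 100 bases before to 25 bases after the start, 5′ to 3′ on the strand of the gene, with complete matches in capitals (ATTGG is CCAAT and TTCAAA is TTTGAA on the other strand, and GCGCCAAA is TTTGGCGC). They show the arrangement in 6 mitotic motors that fell, then Kif26b, which rose and carries both kinds of letters, and Kif1c, the most abundant kinesin, which has none in its window.
Kif11: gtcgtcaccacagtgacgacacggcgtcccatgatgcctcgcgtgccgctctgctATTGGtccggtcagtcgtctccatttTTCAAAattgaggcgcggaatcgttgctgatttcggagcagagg
Kif22: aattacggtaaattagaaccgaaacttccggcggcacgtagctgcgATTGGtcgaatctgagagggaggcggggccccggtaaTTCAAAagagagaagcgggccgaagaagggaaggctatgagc
Kif15: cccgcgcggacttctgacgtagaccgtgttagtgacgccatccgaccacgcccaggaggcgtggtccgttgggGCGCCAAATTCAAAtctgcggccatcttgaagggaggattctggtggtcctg
Kif18b: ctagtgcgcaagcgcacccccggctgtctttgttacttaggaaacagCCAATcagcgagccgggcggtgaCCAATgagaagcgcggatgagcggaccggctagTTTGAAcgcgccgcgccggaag
Kifc1: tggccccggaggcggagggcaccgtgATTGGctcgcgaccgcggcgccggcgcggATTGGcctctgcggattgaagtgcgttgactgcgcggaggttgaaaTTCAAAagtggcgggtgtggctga
Kif23: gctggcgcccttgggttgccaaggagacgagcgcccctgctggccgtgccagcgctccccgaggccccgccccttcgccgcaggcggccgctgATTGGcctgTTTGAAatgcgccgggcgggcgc
Kif26b: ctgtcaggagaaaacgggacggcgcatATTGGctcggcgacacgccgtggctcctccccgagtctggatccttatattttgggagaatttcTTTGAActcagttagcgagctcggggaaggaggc
Kif1c: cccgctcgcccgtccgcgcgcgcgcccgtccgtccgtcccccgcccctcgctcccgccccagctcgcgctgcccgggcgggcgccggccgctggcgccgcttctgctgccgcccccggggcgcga

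In GRCm38.p6 the printed windows lie as follows. Kif11 is at chr19:37376282-37376406 (plus strand). Kif22 is at chr7:127042396-127042520 (minus strand). Kif15 is at chr9:122950981-122951105 (plus strand). Kif18b is at chr11:102925100-102925224 (minus strand). Kifc1 is at chr17:33890609-33890733 (minus strand). Kif23 is at chr9:61946775-61946899 (minus strand). Kif26b is at chr1:178529025-178529149 (plus strand). Kif1c is at chr11:70700448-70700572 (plus strand). In Kif11 a CCAAT box on the minus strand begins 45 bases before the start and is followed by a CHR 26 bases further on, and in Kif22 the same pair lies 37 bases apart. Kif15 joins E2F-type and CHR letters directly, beginning 27 and 19 bases before the start. In Kif18b, Kifc1 and Kif23 the CHR lies just after the start. The arrangement was not seen in all mitotic windows. Kif18a has no CHR letters. Kif2c has its only ones 103 bases before the start of its window, and Kif14 228 bases before and upstream of its CCAAT box. Both starts lie inside the gene, so the outer gene start was not searched. The Kif2c window is around 117178748 to 117178872 (minus strand), in a gene listed from 117159633 to 117182624. That of Kif14 is around 136467748 to 136467872 (plus strand), in a gene listed from 136466301 to 136555938. The printed stretch of Kif1c also lies inside its gene, which is listed from 70700396 to 70731970. Among the other kinesins CHR letters were in Kif24, which fell, in Kif1a and Kif26b, which rose, and in Kif27, which was below the expression minimum.

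**Figure D3:**
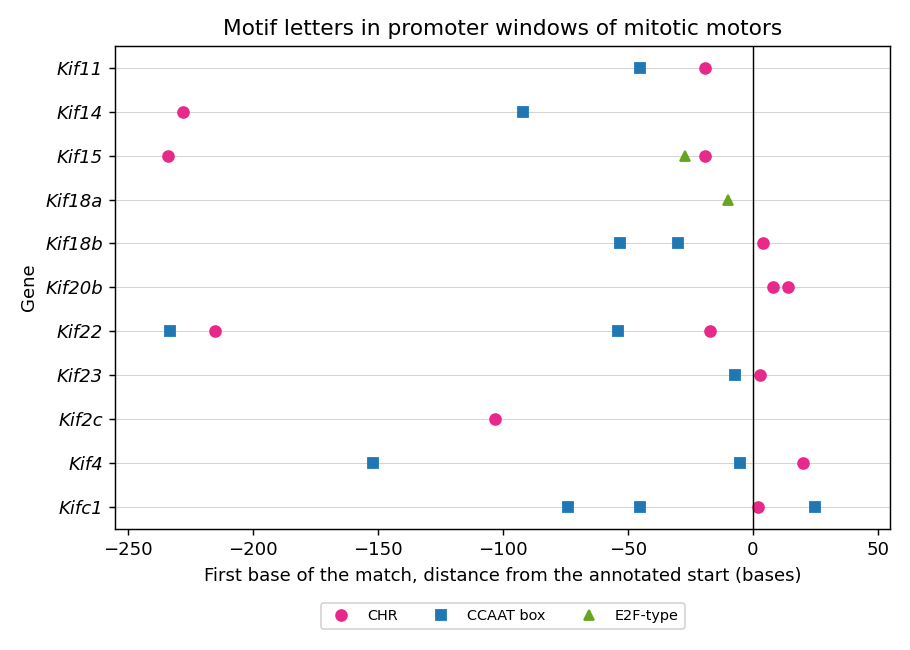
Position of each match in the windows of 11 mitotic motors, as distance in bases of its first base from the annotated start, with CHR as pink circles, CCAAT boxes as blue squares and E2F-type letters as green triangles. CHR matches gather near the start in 8 genes, and CCAAT boxes lie before them in Kif4, Kif11, Kif18b, Kif22, Kif23 and Kifc1.

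The kinesin-1 heavy chains, which carry many cargoes toward the cell edge, were called lower in 2 of 3 cases, against 32.4% of all genes tested, and 1 of these calls rested on the choice of transcripts. Kif5b (chromosome 18, 6201005 to 6241524), the form used in most tissues, read 27.5, 35.0 and 31.4 FPKM in control and 30.4, 32.4 and 27.7 FPKM in Msx1 libraries (adjusted p = 0.685 for a log2 change of -0.05), and the groups overlapped. Kif5c, one of the forms known from neurons, read 4.53, 5.01 and 4.27 FPKM in control and 2.10, 2.21 and 1.98 FPKM in Msx1 libraries (log2 change -0.85, SE 0.07, adjusted p = 4.12e-05), with no overlap, and fell to 45.6% of control. Kif5a, the other, went from 1.59 ± 0.112 to 0.870 ± 0.112 FPKM (adjusted p = 0.00141 for a log2 change of -0.47). Its call was lost when the most abundant transcript stood for the gene (log2 change -0.15, adjusted p = 0.495). Kif5b held 83.4% ± 1.17 of kinesin-1 FPKM in control and 91.0% ± 0.597 in Msx1 libraries (SD, n = 3 each), higher in each Msx1 library than in any control.

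Of the kinesin-2 motors, which drive transport into cilia, 1 of 3 tested was called, against 54.4% of all genes tested in either direction. Kif3a read 11.1, 13.4 and 12.99 FPKM in control and 12.7, 14.1 and 12.2 FPKM in Msx1 libraries (adjusted p = 0.587 for a log2 change of 0.06) and its partner Kif3b read 12.8, 14.4 and 14.3 FPKM in control and 13.5, 13.2 and 14.9 FPKM in Msx1 libraries (adjusted p = 0.975 for a log2 change of 0.003). The groups overlapped for both, and neither was called. Kif3c, another partner of Kif3a, was higher at 9.75 ± 0.364 and 11.6 ± 0.474 FPKM in control and Msx1 cells (adjusted p = 0.0121 for a log2 change of 0.22), but this call was lost without Msx1 replicate 1 (adjusted p = 0.0583). The accessory subunit Kifap3, which ties this motor to cargo and was named after its values were seen, read 37.8, 48.0 and 46.0 FPKM in control and 21.7, 21.5 and 20.8 FPKM in Msx1 libraries (adjusted p = 3.81e-05 for a log2 change of -1.002). Its groups lay far apart, while those of Kif3a and Kif3b overlapped.

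The kinesin-3 family of fast transport motors held the most abundant kinesin and 3 of the 5 increases. The family has 7 genes here, and 22% of all genes tested were called higher. Its mitotic member Kif14 was called lower. Kif1c (chromosome 11, 70700396 to 70731970), a carrier of vesicles and RNA, read 61.3, 57.1 and 56.9 FPKM in control and 68.8, 67.4 and 69.7 FPKM in Msx1 libraries (log2 change 0.23, SE 0.05, adjusted p = 0.00565). It was the most abundant kinesin in every library, and its groups did not overlap although the rise was small. Kif13b, a carrier of signalling and membrane proteins, read 5.87, 7.09 and 6.29 FPKM in control and 10.003, 10.5 and 10.1 FPKM in Msx1 libraries (adjusted p = 2.77e-04 for a log2 change of 0.60), 1.59 times control. Kif1a (chromosome 1, 93015455 to 93102039), best known for carrying synaptic vesicle precursors, read 1.90, 1.56 and 1.99 FPKM in control and 4.56, 4.59 and 4.44 FPKM in Msx1 libraries (log2 change 0.98, SE 0.08, adjusted p = 2.32e-05), 2.50 times control with no overlap. Kif13a and Kif16b, both endosome motors, stood at 7.87 ± 0.191 and 7.97 ± 0.387 FPKM and at 6.59 ± 0.643 and 6.76 ± 0.246 FPKM in control and Msx1 cells and were not called.

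Kif1b (chromosome 4, 149176319 to 149307773) read 25.4, 31.1 and 29.7 FPKM in control and 27.4, 27.1 and 25.3 FPKM in Msx1 libraries as a whole gene (adjusted p = 0.315 for a log2 change of -0.10) and was called neither higher nor lower. Its transcripts are given apart because they encode different tails, a split that was not planned and was made for no other member. The short form (NM_008441) ends at 149233734 on the minus strand after 21 exons, while the long forms (NM_207682 and NM_001290995, with 47 and 49 exons) run on to another tail. The short form, whose tail is known to bind mitochondria, read 11.5, 15.6 and 13.04 FPKM in control and 8.79, 8.12 and 8.10 FPKM in Msx1 libraries. In a fit over transcripts it was called lower (log2 change -0.61, SE 0.11, adjusted p = 0.00903), where 32.3% of all transcripts tested were called in either direction. The long forms summed, a description made after the values were seen, read 13.9, 15.5 and 16.7 FPKM in control and 18.6, 19.0 and 17.2 FPKM in Msx1 libraries. The short form thus made up 45.4%, 50.2% and 43.9% of Kif1b in control and 32.1%, 29.9% and 32.0% in Msx1 libraries. The split between the long forms was unstable (NM_207682 was at 0 FPKM in control replicate 2 and at 13.8 and 16.6 FPKM in the others), and the program estimates how shared reads divide among transcripts. The whole gene was called lower without control replicate 1 (log2 change -0.18, adjusted p = 0.0209) and with sample weights (log2 change -0.14, adjusted p = 0.0183). These settings called 57.4% and 70.9% of all genes tested in either direction.

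**Figure D4:**
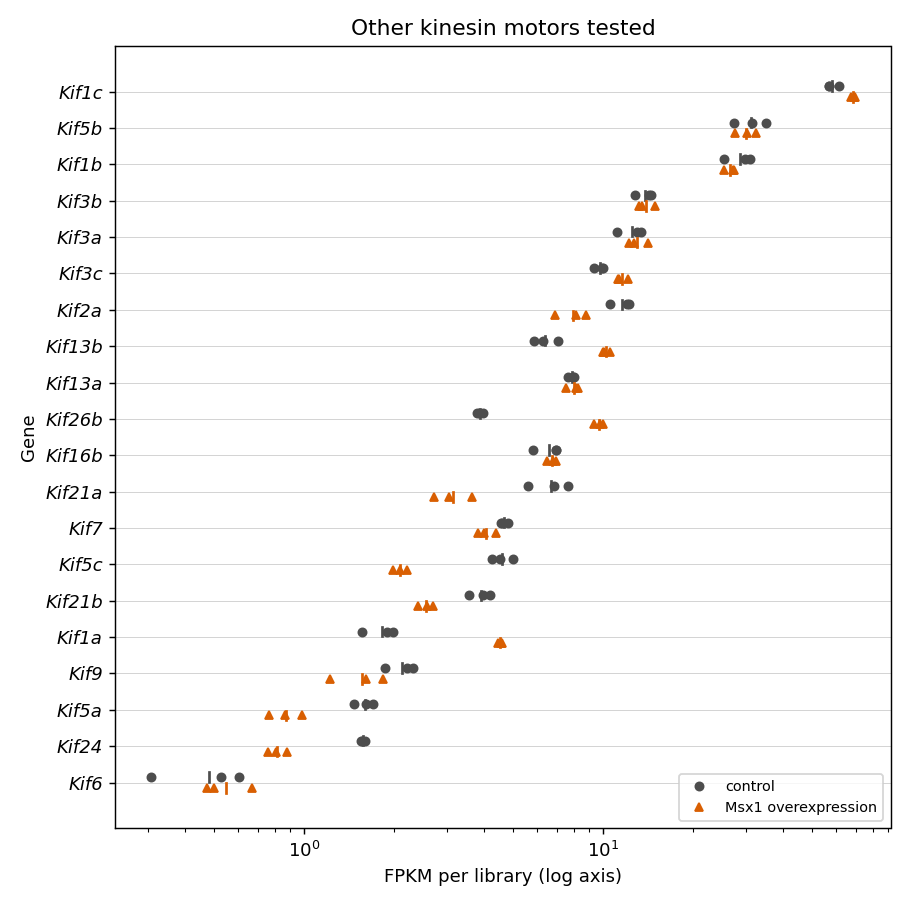
FPKM of the 20 other kinesins tested in each library on a log axis, control as grey circles and Msx1 overexpression as orange triangles, with short lines at the group means. Triangles lie to the right for Kif26b, Kif1a, Kif13b, Kif1c and Kif3c, to the left for Kif21a, Kif5c, Kif24, Kif2a, Kif5a, Kif21b, Kif9 and Kif7, and among the circles for the rest.

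The largest increase among all kinesins on this scale was that of Kif26b (chromosome 1, 178529125 to 178932857), a kinesin-11 member known from kidney and limb development and from Wnt5a signalling. It read 3.95, 3.80 and 3.86 FPKM in control and 9.77, 10.03 and 9.34 FPKM in Msx1 libraries (log2 change 1.14, SE 0.06, adjusted p = 2.21e-06), 2.51 times control, and was the only kinesin called higher by at least 1, which 4.17% of all genes tested were, with Kif1a just short of that size. Its paralog Kif26a was listed at 0 in the 3 control libraries and, with Msx1, read 0.0360, 0.0409 and 0.0436 FPKM, below the minimum for testing.

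Of the kinesin-4 and kinesin-13 members outside the mitotic set, 4 of 5 tested were called lower, against 32.4% of all genes tested. Kif21a, a motor that halts microtubule growth at the cell cortex, read 5.61, 7.61 and 6.86 FPKM in control and 2.71, 3.65 and 3.06 FPKM in Msx1 libraries (log2 change -0.89, SE 0.12, adjusted p = 4.40e-04), down to 47.0% of control. Its 5 transcripts were divided differently from library to library, and with the most abundant one alone the call was lost (log2 change -0.56, adjusted p = 0.385). Its paralog Kif21b went from 3.91 ± 0.316 to 2.56 ± 0.149 FPKM (adjusted p = 0.00124 for a log2 change of -0.46). Kif24, which restrains the growth of cilia from centrioles, read 1.56, 1.55 and 1.60 FPKM in control and 0.807, 0.875 and 0.760 FPKM in Msx1 libraries (adjusted p = 4.67e-04 for a log2 change of -0.50), with tight groups apart. Kif2a, a depolymerase related to Kif2c that also works at spindle poles, went from 11.6 ± 0.932 to 7.95 ± 0.938 FPKM (adjusted p = 0.00257 for a log2 change of -0.50). Kif2a kept 68.4% of control where Kif2c kept 36.1%. Kif7, the ciliary regulator of hedgehog signalling, stood at 4.65 ± 0.129 and 4.06 ± 0.287 FPKM and was not called (adjusted p = 0.0799), except with sample weights (adjusted p = 0.0460). That setting called 70.9% of all genes tested. Of the kinesin-9 motors of motile cilia, Kif9 went from 2.13 ± 0.236 to 1.56 ± 0.313 FPKM (adjusted p = 0.0490), a call lost in 11 of 15 alternatives, among them those without control replicate 2 (adjusted p = 0.108), control replicate 3 (0.145), Msx1 replicate 1 (0.151) and Msx1 replicate 2 (0.0879). Kif6 stood at 0.481 ± 0.156 and 0.548 ± 0.106 FPKM and was not called.

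Of the 6 kinesins below the expression minimum, Kif2b and Kif12 were listed at 0 in every library. Kif2b is a relative of Kif2c, and Kif19a and Kif27 are known from motile cilia. Kif17, Kif19a and Kif27 lay between 0.0410 and 0.265 FPKM. Kif17, a ciliary and dendritic motor of the kinesin-2 family, read 0.237, 0.265 and 0.159 FPKM in control and 0.0626, 0.0654 and 0.0486 FPKM in Msx1 libraries, and values this low rest on few fragments.

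**Figure D5:**
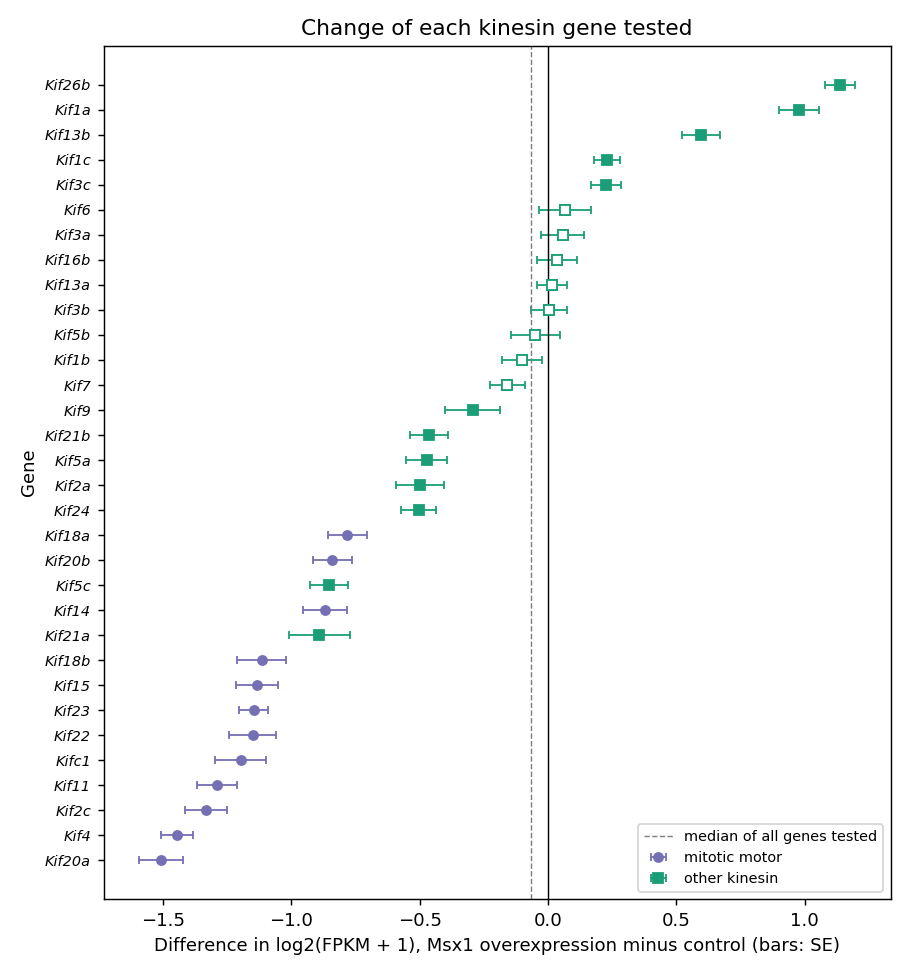
Difference in log2(FPKM + 1), Msx1 overexpression minus control, for the 32 kinesin genes tested, with limma SE as bars, mitotic motors as purple circles, other kinesins as green squares and open symbols where adjusted p was 0.05 or higher. The mitotic motors lie between -1.51 and -0.78, where only Kif21a and Kif5c of the others reach, and the dashed line marks the median of all genes tested at -0.07.

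On the scale with a pseudocount, Kif21a (-0.89) and Kif5c (-0.85) thus lay within the range of the mitotic motors. As shares of the control mean the 20 others tested went from 45.6% (Kif5c) to 251% (Kif26b), and all of the mitotic motors lay at or below 43.3%. Sums by subfamily take mitotic and other members together. Kinesin-6 holds mitotic motors only, while kinesin-13 includes the mitotic Kif2c, kinesin-4 includes Kif4 and kinesin-3 includes Kif14. Summed FPKM of kinesin-6 went from 53.8 ± 1.86 to 19.4 ± 1.69 FPKM, of kinesin-13 from 29.6 ± 0.687 to 14.7 ± 0.420 FPKM and of kinesin-4 from 22.4 ± 1.09 to 11.8 ± 0.418 FPKM. Kinesin-3 went from 113 ± 1.79 to 126 ± 0.969 FPKM and kinesin-2 from 36.3 ± 2.45 to 38.5 ± 0.125 FPKM, while kinesin-1 went from 37.5 ± 4.10 to 33.1 ± 2.41 FPKM and kinesin-9 from 2.61 ± 0.392 to 2.11 ± 0.357 FPKM. The groups overlapped for kinesin-1 and kinesin-9 and did not for kinesin-2 and kinesin-3. Kif1c, Kif5b and Kif1b together held 32.8% ± 1.07 of kinesin FPKM in control and 44.9% ± 0.237 in Msx1 libraries (SD, n = 3 each).

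Of kinesins outside the naming rule, the kinetochore motor Cenpe went from 5.15 ± 0.335 to 1.74 ± 0.121 FPKM (adjusted p = 6.06e-06 for a log2 change of -1.17). The minus-end motors Kifc3 and Kifc2, relatives of Kifc1 that work outside mitosis, rose from 19.5 ± 1.35 to 32.7 ± 0.331 FPKM and from 1.03 ± 0.0494 to 1.69 ± 0.138 FPKM (adjusted p = 2.86e-05 and 0.00217). Of 19 genes that work with the mitotic motors, 18 were called lower and 1 higher, with a median change of -1.17. They include Racgap1, the partner of Kif23, which went from 50.2 ± 5.25 to 22.0 ± 0.627 FPKM, and Prc1, the partner of Kif4, from 26.4 ± 2.10 to 11.2 ± 0.413 FPKM, both named after their values were seen. Hmmr had the smallest adjusted p in that list (7.42e-07), and the spindle pole gene Numa1, its most abundant member, rose from 46.9 ± 2.11 to 61.1 ± 0.213 FPKM. Of 24 cell cycle markers and regulators 20 were called lower, 2 higher and 2 neither, with a median of -1.18, among them Rrm2, the most abundant, from 116 ± 17.2 to 43.2 ± 2.54 FPKM, and Ccnb2 (log2 change -1.60). The 2 higher were Lin52, a MuvB subunit, from 3.97 ± 0.272 to 5.31 ± 0.642 FPKM (adjusted p = 0.0137), and Rbl2, the pocket protein p130 of the DREAM complex, from 31.0 ± 2.47 to 39.2 ± 0.772 FPKM (adjusted p = 0.00315). Of the other Lin and Rbl genes in the list, Lin9 (log2 change -0.47, adjusted p = 0.00207), Rbl1 (-0.36, 0.00135) and Lin54 (-0.19, 0.0487) were called lower and Lin37 (-0.04, 0.684) was not called. Mybl2 (-0.87, 7.78e-04) and Foxm1 (-1.11, 3.45e-05), in the same list, were called lower. All of these were named after their values were seen. The shares of both lists called lower stand beside the 32.4% of all genes tested.

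Among genes that work with the transport motors, calls in each direction are read against the 22% of all genes tested called higher and the 32.4% called lower. Of 21 tested light chains and cargo adaptors of kinesins (25 listed), 7 were called higher, 4 lower and 10 neither, with a median of 0.05 where that of all genes was -0.07. The main kinesin light chain Klc1 rose from 61.8 ± 2.74 to 68.9 ± 0.687 FPKM (adjusted p = 0.0306) and Plekhm2, the link of kinesin-1 to lysosomes, from 12.5 ± 1.63 to 20.1 ± 0.175 FPKM (adjusted p = 4.74e-04). Of the other light chains, Klc3 fell from 3.66 ± 0.401 to 1.86 ± 0.0591 FPKM (adjusted p = 1.83e-04), and Klc2 and Klc4 were not called. The light chains and Plekhm2 were named after their values were seen. Of 29 tested genes of dynein, the minus-end motor of the cytoplasm, and its partner dynactin, 3 were called higher, 7 lower and 19 neither (median -0.09), both shares below those of all genes. The kinetochore adaptor Spdl1 had the smallest adjusted p, from 6.04 ± 0.218 to 1.70 ± 0.160 FPKM, and Dynlrb1, the most abundant, stood at 151 ± 7.46 and 162 ± 6.96 FPKM and was not called.

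Of 31 genes of intraflagellar transport and hedgehog signalling, which depend on kinesin-2 and Kif7, 4 were called higher, 10 lower and 17 neither (median -0.12), and the share called lower is near the 32.4% of all genes tested. The hedgehog factor Gli2 rose from 0.437 ± 0.0518 to 3.29 ± 0.189 FPKM (adjusted p = 1.27e-06 for a log2 change of 1.58), and Ift20, the most abundant, went from 65.2 ± 0.757 to 50.8 ± 0.873 FPKM. Apart from Gli2, the higher calls were the hedgehog genes Smo and Ptch1 and the transport gene Traf3ip1. Gli1 fell from 0.872 ± 0.0796 to 0.376 ± 0.102 FPKM (adjusted p = 0.00279), and Gli3 and Sufu were not called. Apart from Gli2 and Ift20, these genes were named after their values were seen. The tubulins, the track of all kinesins, mostly fell: 12 of 14 passed the test as lower, against 32.4% of all genes tested, and 2 did not pass it (median -0.51). Tuba1a, the most abundant, went from 611 ± 64.2 to 404 ± 22.8 FPKM and Tubb3, with the smallest adjusted p, from 8.15 ± 0.629 to 2.49 ± 0.462 FPKM. Tubulin genes are near-identical in parts, so reads may be divided wrongly among them.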

How the data were processed

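RNA of 3 control and 3 Msx1-overexpressing C2C12 samples was isolated with Trizol and made into libraries with a NEBNext Ultra kit, per the labels' protocols. The authors deposited 1 table of FPKM per RefSeq transcript, made with Trimmomatic, HISAT2 and StringTie on GRCm38 (mm10), per the submitters' processing notes. Their versions, settings and use of strand are not stated there. Control columns were matched to samples by their number. Of 38468 transcripts 38193 were named by RefSeq's table for that build, 156 by GENCODE, and 119 kept their identifiers. FPKM were summed per symbol. Limma 3.58.1 (R 4.3.3) was fitted to log2(FPKM + 1) of 12371 genes with an intensity trend and Benjamini-Hochberg adjustment, and it was tested on simulated data. Fragment numbers are not given, so intervals from counts were not made. With 3 against 3 libraries the smallest exact two-sided permutation p is 0.1, so single values were not tested that way. The members and lists were chosen with earlier results of these data known. Every member is named, with library values for mitotic motors and for others called with a change of at least 0.5 or among the 5 most abundant. From each list the gene with the smallest adjusted p and the most abundant are named, except for an item that is not reported here. The settings varied were pseudocount, filter, scaling, replicate block, sample weights, transcript choice and each library left out. Protein sequences were not used here. The share of higher calls among all genes was 40.4%, against 51.2% when scaled by median of ratios, 55.4% with library totals equalised leaving Msx1 out and 46.0% after quantile normalization.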

Additional observations from a re-analysis of the deposited data

How the results depend on the processing

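All 12 mitotic motors were called lower under 15 of the 16 alternatives, and a minimum of 2 FPKM left 10 of them, all lower. The 7 lower calls of the other kinesins became 4 with that minimum and 4 with the most abundant transcript alone, in part because fewer genes were tested with the first, and were 9 with sample weights and 6 to 8 with each library left out in turn. The higher calls, 5 as reported, were 6 with no filter on low values and 4 to 5 with a library left out. The share of all genes called in either direction also moved with the setting. It was 54.4% as reported, 55.4% with the minimum of 2 FPKM and 45.8% with the most abundant transcript alone. With sample weights it was 70.9%, with no filter 39.3% and with a library left out 45.2% to 57.4%. The median of the mitotic motors was -1.31 with a pseudocount of 0.1, -1.23 with 0.5, -1.08 when scaled by median of ratios, -1.05 with totals equalised leaving Msx1 out, and -1.22 to -1.13 with a library left out. That of the other kinesins was 0.0506 and 0.0817 under these scalings and -0.0923 to 0.0265 with a library left out. Of 506 member values under alternatives 473 kept direction and side of the threshold, 14 lost the call, 3 gained it and 16 changed sign, the latter only in 7 genes that were not called. With a library left out, Kif13a ranged from -0.00736 to 0.0512, Kif16b from -0.0367 to 0.0740, Kif3a from -0.0176 to 0.106, Kif3b from -0.0483 to 0.0360, Kif5b from -0.137 to 0.0321 and Kif6 from -0.0208 to 0.129. With sample weights those of the opposite sign were Kif16b (-0.0320), Kif3b (-0.0517) and Kif6 (-0.0444), with equal totals Kif1b (0.00834) and Kif5b (0.0604), after median-of-ratios scaling Kif5b (0.0259), and with 1 transcript Kif1b (1.59). The cause was not tested. Correlations of deviations between control and Msx1 libraries were 0.0553, 0.226 and 0.0366 for equal replicate numbers and -0.204 to 0.133 for unequal ones. Whether the numbers pair the libraries was not settled by these values. The replicate block gave 12 lower mitotic motors and 7 lower and 5 higher others. Fragment numbers are not given, so whether depth limits the 6 kinesins below the minimum was not tested.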
